A study of Mus musculus with 3 samples.

Results

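The genes of the cytosolic ribosomal proteins were described in 3 BCR::ABL1+ mouse cell lines that are homozygous for a kinase-inactive CDK6. Members were the protein-coding rows of the count table whose symbols name a protein of the small subunit (Rps, Rpsa) or of the large subunit with its stalk (Rpl, Rplp), and the choice used symbols and no measured value. Of 50686 rows, 83 were members, 32 of them small-subunit and 51 large-subunit symbols. The symbol rule leaves out genes of ribosomal proteins with other names, such as Fau, which is counted among the ribosome-associated genes further down.

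All 3 lines carry the K43M genotype, which exchanges a residue that the CDK6 kinase needs for catalysis, and are called Cdk6 KM/KM here. They are stable lines made from bone marrow of C57BL/6 mice by retroviral transfer of BCR::ABL1 p185, carry the label Pre/Pro-B-cells, were grown in RPMI medium with fetal calf serum and were sequenced as polyA RNA. The study describes them as separate cell lines and the labels number them as replicates, without saying whether they came from separate mice, so any p-value measures only the spread between these libraries. Lines with wild-type CDK6 and lines without CDK6 were not analysed here, so no effect of the genotype was computed, and every comparison below is between lines of the same genotype or between genes.

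A ribosome is built from ribosomal RNA and a fixed set of proteins, nearly all present as a single copy per particle, so that the proteins are needed in about equal numbers. Their mRNAs are among the most abundant of dividing cells and start with a short run of pyrimidines, the 5′ terminal oligopyrimidine tract, through which their translation follows mTOR signalling. Mammalian genomes also hold very many processed pseudogenes of these genes, intron-free copies made by reverse transcription of the mRNA, and a short read from the mRNA often matches several of them. In lymphoid cells, loss of single ribosomal proteins is known to disturb development, and in blood disease inherited mutations of several of them cause Diamond-Blackfan anaemia.

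The libraries held 21569845, 19633463 and 25773221 counts, and levels are given as CPM, the counts of a gene scaled to a common library total (TMM normalisation). All 13 B-lineage markers examined were at 1 CPM or more in every line, with a summed level between 4434 and 5170 CPM, while the 7 T and NK cell markers summed to at most 0.393 CPM, the 7 myeloid markers to at most 3.93 CPM and the 6 erythroid markers to at most 6.44 CPM. In every line 0 counts were found for 4 of the T and NK, 3 of the myeloid, 3 of the erythroid and all 5 stromal markers. Cdk6 itself was at 450 CPM, 334 CPM and 239 CPM in lines 1, 2 and 3, and counts per gene do not show the K43M allele. In these bulk libraries fewer cells of a type and less RNA per cell cannot be told apart.

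The sequences that matter for counting are shown first. The first 90 coding bases of 3 members are set beside an annotated processed pseudogene, 5′ to 3′, with a base in capitals where the pair differs and lower case elsewhere. Among the pseudogenes compared, which did not cover every chromosome, none matched these 90 bases more closely without gaps. Rps16 (chromosome 7, 28350652 to 28353155, plus strand, GRCm38) and Rpl23a (chromosome 11, 78180932 to 78183584, minus strand) had the lowest and the second lowest level per length among the members at 1 CPM or more in every line, and Rpl4 (chromosome 9, 64173375 to 64178666, plus strand) had the highest count.
Rps16: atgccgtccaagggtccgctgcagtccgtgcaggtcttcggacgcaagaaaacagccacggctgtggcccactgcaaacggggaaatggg
Rps16-ps2: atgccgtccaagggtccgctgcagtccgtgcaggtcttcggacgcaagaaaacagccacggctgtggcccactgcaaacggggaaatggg
Rpl23a: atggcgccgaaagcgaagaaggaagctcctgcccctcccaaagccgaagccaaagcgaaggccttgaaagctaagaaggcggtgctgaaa
Gm10132: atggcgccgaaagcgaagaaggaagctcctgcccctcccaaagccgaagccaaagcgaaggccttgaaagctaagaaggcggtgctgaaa
Rpl4: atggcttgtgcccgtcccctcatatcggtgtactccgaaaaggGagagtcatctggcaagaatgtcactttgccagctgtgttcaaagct
Gm5835: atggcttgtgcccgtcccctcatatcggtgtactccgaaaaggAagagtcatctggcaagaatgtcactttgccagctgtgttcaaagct
The 438 coding bases of Rps16 occurred without a difference in Rps16-ps2, on chromosome 5 (129128077 to 129128517). Over the 468 coding bases of Rpl23a, its copy Gm10132 on chromosome 14 (77251847 to 77252314) differed at 1 base. Rpl4 shared sequence with a single annotated pseudogene, Gm5835 on chromosome 1 (143093347 to 143094616), which differed at 36 of 1257 coding bases and at 1 of the 90 bases shown. A 50-base read that lies wholly within a shared stretch cannot be placed by its sequence alone.

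Promoter windows of 250 bases before to 50 bases after the start were taken from RefSeq (GRCm38.p6), and 75 windows of 63 members matched by symbol. A run of 8 or more bases that are all C or T was sought on the sense (mRNA-like) strand within 50 bases of the start. It was present in 58 of these windows (77.3%), against 35.7% of all 32851 windows. The letters CCGGAAG, the core of sites for ETS factors, occurred on either strand in 27 windows (36%), against 8.86% of all. The letters TATAAA occurred within the 50 bases before the start, on the sense strand, in 1 window (1.33%), against 2.63% of all. A match is a description of the letters and not a site. Windows of 30 bases around the run are shown for 4 members whose levels differed between lines by more than 1.5-fold, with the run in capitals.
Rpl34 (chr3:130730330-130730359, minus strand): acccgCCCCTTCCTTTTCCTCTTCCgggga
Rpl22l1 (chr3:28805499-28805528, plus strand): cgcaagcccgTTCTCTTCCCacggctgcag
Rps18 (chr17:33955648-33955677, minus strand): gtcacttccgCTCTCTCTTCCacaggaggc
Rpl15 (chr14:18270968-18270997, minus strand): gagaaagCCTTCTTCCTTTCCTCTggcggc

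Ribosomal protein genes took 1.92%, 1.89% and 1.79% of all counts in lines 1, 2 and 3, a mean of 1.87% ± 0.0679 (SD, n = 3). Small-subunit genes held 0.787%, 0.814% and 0.774%, and large-subunit genes 1.13%, 1.08% and 1.02%, so that the large-subunit share was highest in line 1 and lowest in line 3. The 10 genes with the most counts, among them Rpl4, Rpl8, Rplp0, Rps3, Rplp1, Rps9, Rps15, Rpl7 and Rps14, held 64.0% of the counts on members. Against them, 4 members had a mean under 1 CPM, 12 a mean from 1 to under 10 CPM, 30 from 10 to under 100 CPM, 32 from 100 to under 1000 CPM and 5 of 1000 CPM or more, with a median of 58.1 CPM.

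In every line, 78 of the 83 members reached 1 CPM. The other 5 comprised the tissue-restricted paralogs Rpl10l, Rpl39l and Rpl3l and the core genes Rpl24 and Rps29. Rpl10l and Rpl39l, known as testis-enriched relatives of Rpl10 and Rpl39, had 0 counts in each line, which allows up to 0.138, 0.152 and 0.118 CPM in lines 1, 2 and 3. Rpl3l, the muscle-enriched relative of Rpl3, had 4, 1 and 3 counts. Rpl24 had 14, 11 and 20 counts, and Rps29 had 27, 27 and 22, although both proteins belong to every ribosome.

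**Figure D1:**
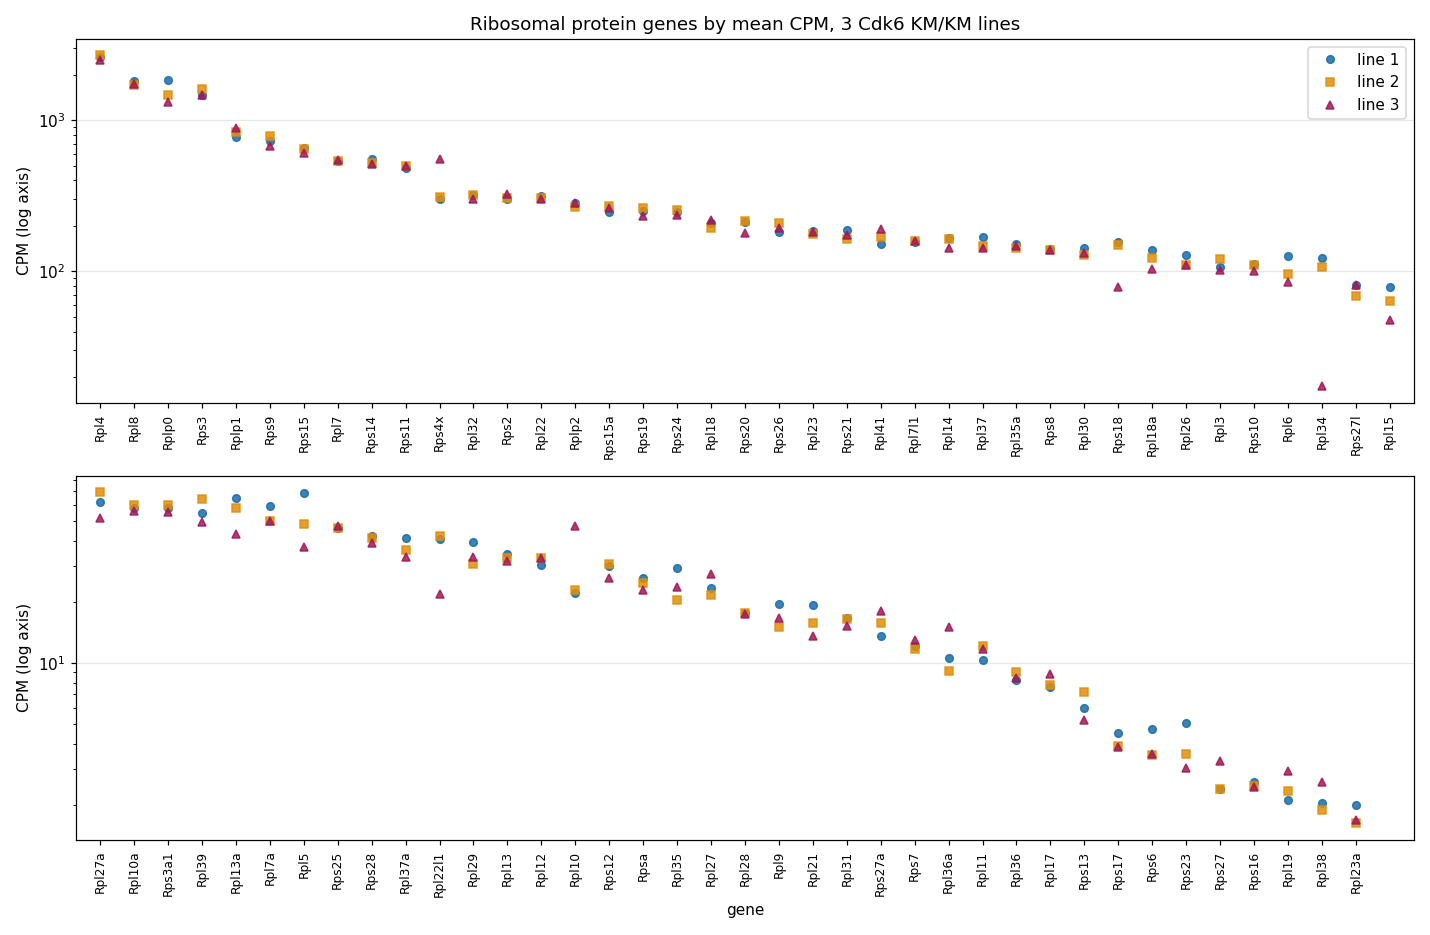
Level of 77 ribosomal protein genes that reached 1 CPM in every line, in CPM on a log axis, ordered by the mean over the 3 Cdk6 KM/KM lines (1 point per line, no error bars). The points of a gene mostly lie close together, while the genes run from 2595 CPM for Rpl4 to under 2 CPM for Rpl23a, and Rpl34 in line 3 lies far under its other points.

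Levels between genes were compared only per length, as CPM per kilobase of exon (mean of the lines). Highest were Rplp1, a phosphoprotein of the ribosomal stalk, at 1663 CPM per kb, Rpl8 at 1294, Rpl4 at 1293, Rps15 at 1009 and Rplp0, the base of the stalk, at 931. Lowest among the 78 were Rps16 at 1.97 CPM per kb, Rpl23a at 2.08, Rps13 at 2.28, Rpl19 at 2.41 and Rps6, the substrate of S6 kinase, at 2.46. The highest level exceeded the lowest by 843-fold, and the SD over the 78 genes was 2.45 on the log2 scale. For comparison, the SD of the same quantity was 2.25 over 9 ribosome-associated genes, 2.08 over 13 B-lineage markers, 1.60 over 32 translation factors, 1.39 over 14 chaperones and importins, 1.19 over 52 ribosome biogenesis genes and 0.99 over 15 RNA polymerase I genes.

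The level per length followed the share of the coding sequence that other annotated genes also contain. For each member, the 50-base stretches of its coding sequence were looked up in all annotated transcripts of other genes, because 50 bases is the labelled read length. The median share was 90.3%, and 68 of 83 members shared at least 50% of their coding stretches, which 7.60% of 11531 protein-coding genes did. All coding stretches were shared in 29 members, and none in 3, among them Rpl3l and Rpl39l. In pseudogenes alone, the median share was 88.3% and 65 members reached 50%.

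Among the 78 members, the 5 that shared under 25% of the coding stretches (among them Rps3, Rpl4, Rpl8 and Rpl7l1) had levels from 45.1 to 1294 CPM per kb. The 7 that shared 25% to under 50% had a median of 290 CPM per kb, the 6 that shared 50% to under 75% had 178, and the 18 that shared 75% to under 90% had 52.9. The 42 that shared 90% or more had a median of 12.9 CPM per kb. Spearman's rho between the share and the level was -0.86 over the 78 genes, which are not independent replicates and share the same libraries, so no p is given. Of 62 members with a share of at least 75%, Rpl7 was the only one with a mean of 500 CPM or more.

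**Figure D2:**
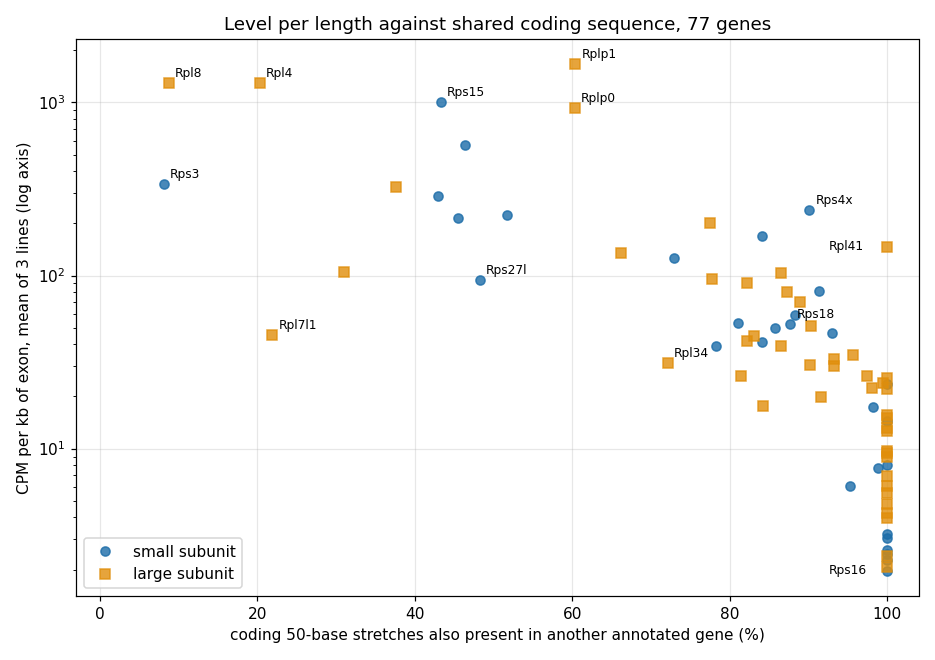
Level per length (mean CPM per kb of exon over the 3 lines, log axis) against the percent of a gene's coding 50-base stretches that another annotated gene also contains, 1 point per gene for 77 genes, split by ribosomal subunit. Points fall from 1294 CPM per kb for Rpl8 at a share of 8.73% to 1.97 for Rps16 at a share of 100%. The genes at 100% spread widely, with Rpl41, which has only 26 coding stretches, the highest.

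The relation had exceptions in either direction. Rpl7l1, a nucleolar relative of Rpl7 that is not a core ribosomal protein, shared 21.9% of its coding stretches and was at 45.1 CPM per kb, the lowest level of the 5 least shared genes. Rpl41, which encodes the smallest ribosomal protein, shared all of its coding stretches and was at 145 CPM per kb. It has only 26 coding stretches, and shared 35.4% of the stretches of its whole transcript. Rps4x shared 90.1% of its coding stretches and was at 239 CPM per kb. Over the whole transcript, where untranslated ends count too, the median share was 49.4%, 41 members reached 50% and rho was -0.51. The highest whole-transcript shares were those of Rps27 (98.6%), Rpl35 (95.1%), Rpl5 (93.8%), Rpl9 (93.3%) and Rps18 (86.7%), and among the lowest were those of Rpl3l and Rpl39l (0), Rps3 (2.96%) and Rpl22 (5.20%).

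Dividing by the length of the unshared stretches alone, in place of the exon length, left an SD of 2.21 on the log2 scale and a highest level 1142-fold above the lowest. On that scale rho with the whole-transcript share was 0.01. The share itself sets the divisor, so this rho moves by construction and no conclusion is drawn from it. Some divisors are small, with 4 unshared stretches in Rps27. Reads were also counted on the copies. Of 1101 annotated pseudogenes that share a stretch with a member, 942 had a row, and together they held 11239, 9700 and 12191 counts, which is 0.0521%, 0.0494% and 0.0473% of the libraries against 1.79% to 1.92% on the members. Rpl7a had the most pseudogenes (120), and these held 154, 136 and 114 counts. For some members the pseudogenes held more counts than the gene, as for Rps3a1 with 2055, 1788 and 2178 beside 1263, 1182 and 1417 of its own, and for Rpl19 with 121, 86 and 124 beside 46, 46 and 75. The single pseudogene of Rpl14 held 1843, 1964 and 2679 counts beside 3590, 3231 and 3619 of its own. The 23 pseudogenes of Rpl15 held 927, 568 and 569 beside 1723, 1249 and 1222. Most of these counts lay on Gm8420, with 737, 475 and 488, which shares 4.16% of the Rpl15 transcript stretches. Rpl15-ps3, which shares the most (30.2%), had 0 counts in each line. The pseudogene sums include a pseudogene however little it shares, and leave out copies annotated as protein coding. How reads with several matches were treated is not given in the sources used here, and the part of shared sequence in the low levels was not tested. In 8 members, among them Rpl13a, Rps10 and Rpl24, another annotated gene overlaps the locus and contains part of the coding sequence, and their counts carry that uncertainty too.

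Between the lines, most members differed beyond counting error but by little. A chi-square test of each gene's counts over the 3 libraries, which compares libraries and not conditions, called 52 of 80 members with at least 10 counts (65%), against 66.8% of all genes tested, with Benjamini-Hochberg adjustment over all genes. The share of members called was near that background. A range of at least 1.5-fold between the highest and the lowest line was seen in 9 of 70 members with a mean of 5 CPM or more (12.9%), against 22.9% of all genes at that level. The median SD between lines, on log2(CPM + 1), was 0.10 over the 80 members and 0.17 over all genes tested. Over genes with a mean between 17.4 and 204 CPM, the quartiles of the members, it was 0.13 for 40 members. It was 0.14 for 6392 other genes, a smaller gap than over all levels. In that range the test called 28 of the 40 members (70%), against 80.7% of the 6392 other genes. Line 3 was the lowest line in 40 of the 80 members and line 1 the highest in 38. How often this held over all genes was not computed, so neither count is read as a trait of the members. The members' median deviations were 0.03, -0.01 and -0.04 in lines 1, 2 and 3. Over all genes tested they were -0.012, -0.002 and 0.003.

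The most abundant members varied to different degrees. Rps3, a protein of the 40S mRNA entry site that also acts in DNA repair, was at 1458, 1604 and 1458 CPM, a range of 1.10-fold. Rpl8, close to the peptidyl transferase centre, was at 1815, 1721 and 1738 CPM. Rpl4, which lines the exit tunnel, was at 2600, 2680 and 2506 CPM, a mean of 2595 ± 87.4 (SD, n = 3). These 3 genes passed the chi-square test with ranges of at most 1.10-fold, and their counts are high. Rplp0, also among the 5 members at 1000 CPM or more, had a range of 1.42-fold.

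Rpl34, a protein on the surface of the 60S subunit, had the widest range of the members at 5 CPM or more. It was at 123, 107 and 17.4 CPM in lines 1, 2 and 3 (2668, 2105 and 443 counts), so that line 3 lay 7.07-fold under line 1. The 29 expressed neighbours within 5 Mb on chromosome 3 had median deviations of -0.03, -0.01 and 0.02 on the log2 scale and did not share the low value. The 9 annotated pseudogenes that share a stretch with Rpl34 held 45, 55 and 95 counts together, mostly on Rpl34-ps2 with 35, 42 and 73. The counts on the copies were thus highest in the line where Rpl34 was lowest. Whether reads moved from the gene to the copies, or were left uncounted, was not tested.

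A lower value in line 3 alone was also seen in Rps18 and Rpl22l1. Rps18, a protein of the 40S head that contacts the large subunit, was at 158, 150 and 78.9 CPM, a range of 2.00-fold. Rpl22l1, which can take the place of Rpl22 and lies on chromosome 3 like Rpl34, was at 40.7, 42.2 and 21.9 CPM, a range of 1.93-fold. In both cases lines 1 and 2 lay close together and line 3 apart. A copy of Rps18 differed between the lines in the opposite direction. Gm10260 on chromosome 13 (97760072 to 97760632, minus strand), annotated as protein coding, shares 56.8% of the Rps18 stretches and had 6, 3 and 4892 counts, beside 3422, 2962 and 2010 on Rps18 itself. The copy was thus almost silent in lines 1 and 2 and above Rps18 in line 3, and whether reads moved from the gene to the copy was not tested. Their neighbours were flat, with median deviations between -0.05 and 0.07. Rpl15, a core protein of the 60S subunit, was at 79.4, 63.3 and 48.0 CPM, and Rpl13a, known for another role in silencing inflammatory mRNAs, was at 64.7, 57.9 and 43 CPM. In these genes the lines were spread more evenly, with line 1 highest.

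**Figure D3:**
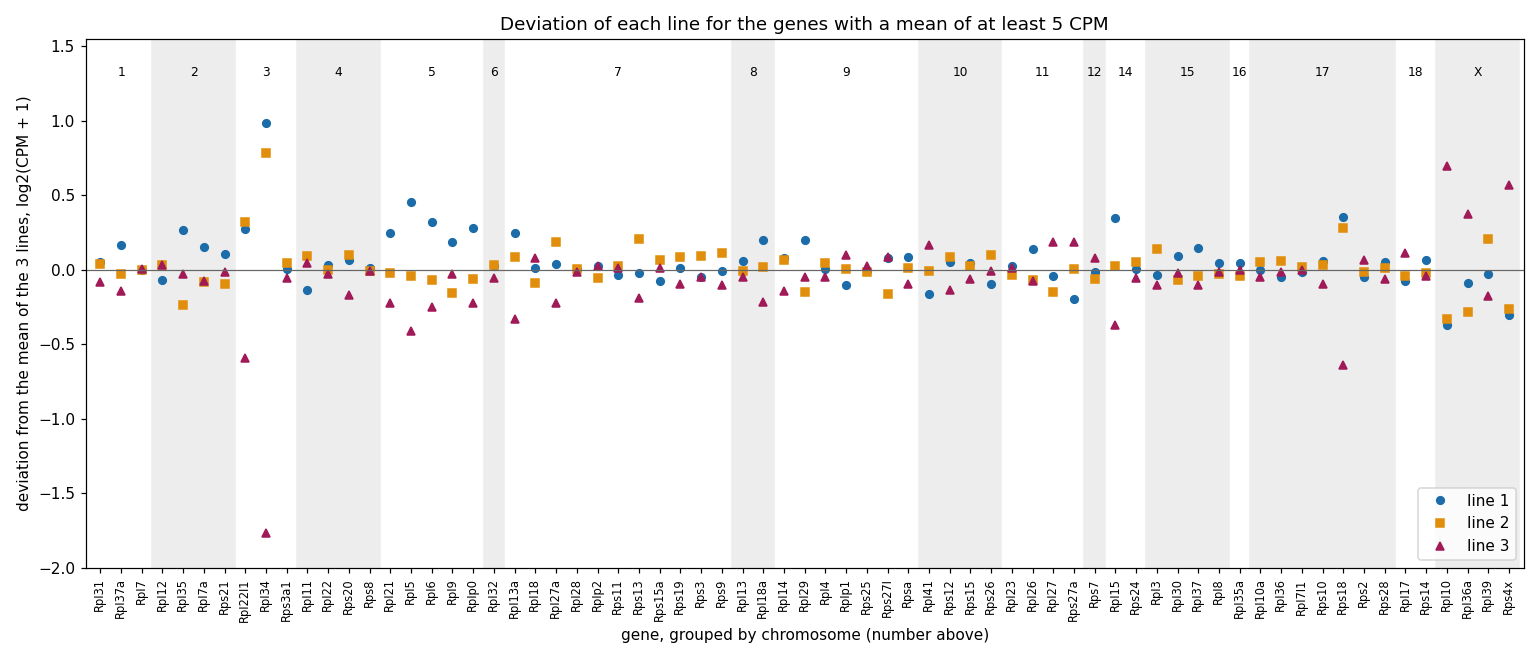
How far each line lay from the 3-line mean of a gene, in log2(CPM + 1), for 69 ribosomal protein genes with a mean of at least 5 CPM, grouped by chromosome (1 point per line and gene). Most points lie near 0, Rpl34 in line 3 lies lowest, line 3 is highest for Rpl10, Rpl36a and Rps4x on chromosome X, and line 1 is highest for all 5 genes on chromosome 5.

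On chromosome X, 3 of 4 members were higher in line 3. Rpl10, which joins the 60S subunit late in its assembly, was at 22.1, 22.7 and 47.3 CPM. Rps4x was at 303, 311 and 555 CPM, and Rpl36a at 10.6, 9.12 and 15 CPM. For each of them lines 1 and 2 were close and line 3 was above, by 1.64-fold to 2.14-fold between the highest and the lowest line. Their expressed neighbours within 5 Mb moved too, with median deviations of -0.35, -0.23 and 0.63 around Rpl10, -0.36, -0.20 and 0.55 around Rps4x, and -0.37, -0.28 and 0.64 around Rpl36a. After subtraction of the neighbours the log2 range of Rpl10 went from 1.07 to 0.16, that of Rps4x from 0.87 to 0.11 and that of Rpl36a from 0.66 to 0.55, with line 3 now lowest at -0.27 and line 1 highest at 0.28. Xist, the RNA that silences an X chromosome in female cells, is among the neighbours of Rps4x and deviated by -1.61, -1.67 and 3.27, and its part in these values was not tested. The remaining X-linked member, Rpl39, was at 54.6, 64.6 and 49.3 CPM and was lowest in line 3, and its neighbours deviated by -0.08, 0.02 and 0.07.

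The 5 members on chromosome 5 were each highest in line 1. Rpl5 was at 68.4, 48.2 and 37.1 CPM, Rpl6 at 127, 96.8 and 85.5 CPM, and Rpl21 at 19.2, 15.8 and 13.5 CPM. Rpl9 was at 19.4, 15.1 and 16.6 CPM, with line 2 lowest. The neighbours of these 5 genes deviated by 0.26 to 0.29 in line 1 and by -0.20 to -0.18 in line 3. After subtraction of the neighbours the log2 range of Rplp0 went from 0.50 to 0.04, and that of Rpl5 from 0.86 to 0.40.

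**Figure D4:**
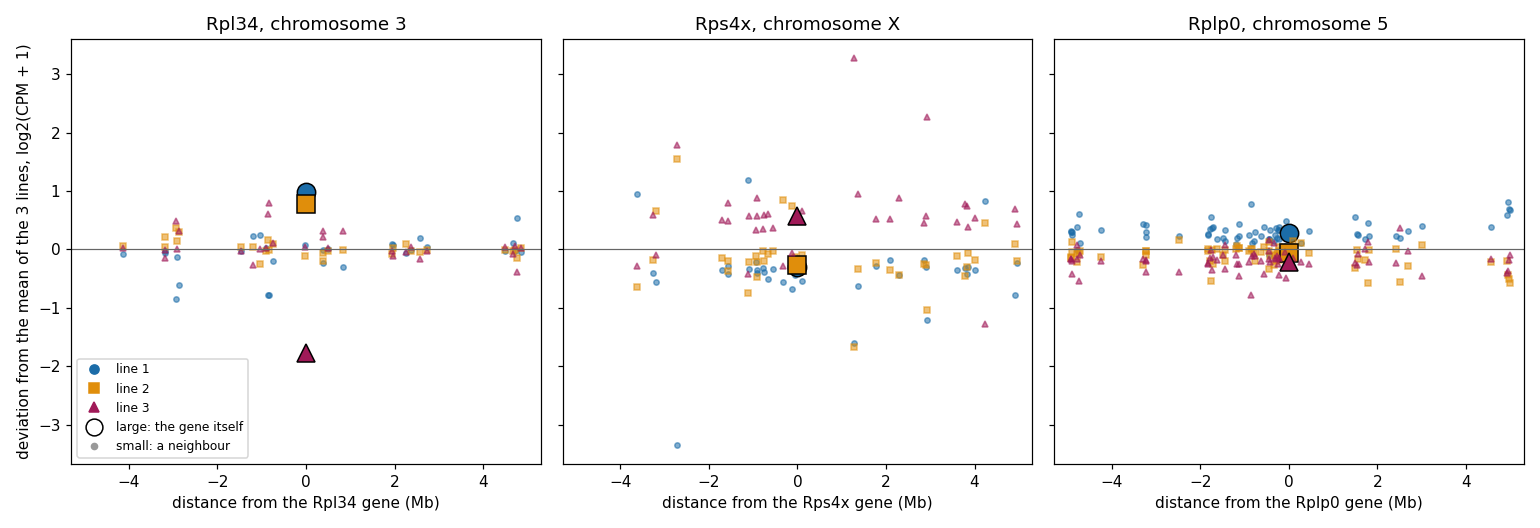
How far each line lay from the 3-line mean of a gene, in log2(CPM + 1), for the expressed genes within 5 Mb of Rpl34 (29 genes), Rps4x (36) and Rplp0 (69), against distance in Mb. Large symbols are the ribosomal protein gene and small symbols its neighbours. Rpl34 stands apart from its neighbours in line 3, while Rps4x and Rplp0 lie within theirs.

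Across the 70 members at 5 CPM or more, 8 lay where the neighbours' medians ranged by at least 0.2 between lines, and 4 of these 8 had a range of 1.5-fold or more. The other 62 lay where the neighbours ranged by less, and 5 of them reached 1.5-fold. The median log2 range of the 8 was 0.62, and 0.14 after subtraction of the neighbours, against 0.17 for the 62. Whether the shift of the segment accounts for the members' shift was not tested. Line 3 carries the wide ranges. Without it, 0 members reached 1.5-fold between lines 1 and 2, against 10.2% of all genes. Without line 1 there were 6, against 14.4% of all genes, and without line 2 there were 9, against 15.8%.

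Paralogs were compared within each pair by their values. Rpl22 was at 313, 306 and 301 CPM, and its range of 1.04-fold did not pass the test, whereas its relative Rpl22l1 was the gene with the low value in line 3 given above. Rpl3 was at 107, 122 and 102 CPM beside the 4, 1 and 3 counts of Rpl3l. Rpl7 was at 540, 541 and 542 CPM, the narrowest range of the 80 members tested, and Rpl7l1 at 156, 160 and 158 CPM. Rps27, which shared all of its coding stretches, was at 2.40, 2.38 and 3.30 CPM. Rps27l, a p53-induced relative that shared 48.3%, was at 80.9, 68.4 and 81.5 CPM. Per kilobase of exon, the more shared gene was the lower one in the pair Rps27 (2.58 CPM per kb) and Rps27l (94.3), and the higher one in the pair Rpl7 (201) and Rpl7l1 (45.1).

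The stalk recruits the GTPases of translation through an arm of Rplp0 with dimers of Rplp1 and Rplp2. Rplp1 was at 771, 832 and 886 CPM, with line 1 lowest. Rplp2 was at 283, 268 and 283 CPM, with line 2 lowest. Rplp0 was highest in line 1 and lowest in line 3. Its log2 range went from 0.50 to 0.04 after subtraction of its neighbours on chromosome 5. The 3 stalk genes did not rank the lines in the same order.

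Rpl5, Rpl11, Rpl35a, Rps19, Rps24 and Rps26 were examined as genes of the 5S particle or of Diamond-Blackfan anaemia, a choice that does not cover all genes linked to that disease. Of these 6, Rpl5 alone had a range over 1.5-fold, where 22.9% of all genes at 5 CPM or more reached 1.5-fold. The neighbours of Rpl5 on chromosome 5 moved too, as given above. Rpl15, which is also linked to the disease, had a range of 1.65-fold. Rpl11, which with Rpl5 and 5S RNA binds MDM2, was at 10.3, 12.2 and 11.7 CPM and did not pass the test. Rpl35a was at 152, 143 and 147 CPM and did not pass it either. Rps19 was at 250, 264 and 233 CPM, Rps24 at 246, 253 and 235 CPM and Rps26 at 181, 208 and 193 CPM. These 3 small-subunit genes passed the test, and each was highest in line 2. The test also called 66.8% of all genes tested, and 80.7% of the 6392 genes outside the members between 17.4 and 204 CPM.

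Genes that make or use ribosomes were examined as lists beside the members. The 32 translation factors held 2.54% ± 0.0463 (SD, n = 3) of counts, more than the 83 ribosomal protein genes. These shares make no allowance for length or shared sequence, so they do not compare amounts of mRNA. Of the 32 factors, 30 were called. The test called 66.8% of all genes, and 80.7% of the 6392 genes outside the members between 17.4 and 204 CPM. A range of 1.5-fold or more was seen in 2 (22.9% of all genes at 5 CPM or more). Among the 32 factors, Eef2, which moves the ribosome along the mRNA, was at 4687, 4973 and 4975 CPM. Eif2s3x, the gamma subunit of the initiator tRNA carrier eIF2 and X-linked, was at 26, 22.7 and 49 CPM, with line 3 high as in Rpl10. Eif2s1, the alpha subunit that stress kinases phosphorylate, was at 254, 246 and 140 CPM, with line 3 low.

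The shares over all genes were again 66.8% called and 22.9% at 1.5-fold. A call depends on the number of counts, and no share was computed for genes at the level of each list. Of 52 ribosome biogenesis genes, 48 were called and 3 reached 1.5-fold, and the 52 held 1.90% ± 0.0711 (SD, n = 3) of counts. Of 15 genes of RNA polymerase I and its factors, 12 were called and 1, Polr1d, reached 1.5-fold. Of 14 chaperones and importins of ribosomal proteins, 12 were called and 1 reached 1.5-fold, the X-linked Tsr2 at 54.2, 51.5 and 102 CPM. Of 9 ribosome-associated genes found, 8 were called, and 0 of 8 at 5 CPM or more reached 1.5-fold. Rack1, a scaffold on the 40S subunit, was at 2252, 2199 and 2264 CPM. Fau, whose product carries a small-subunit protein, was at 4.28, 4 and 6.20 CPM. The median whole-transcript share of stretches in other genes, list by list, was between 0.0205% and 9.30%, against 49.4% in the members.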

How the data were processed

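RNA-seq of 3 Cdk6 KM/KM lines was analysed. Per the labels and the methods of the study, the authors trimmed reads with Trimmomatic, aligned them to mm10 (GRCm38) with STAR, used featureCounts to count reads over exons, and the deposited values are these raw counts, not normalized. Strand setting, treatment of reads with several matches, and which of the library kits named in the sources was used for these libraries could not be settled. The 6 columns of other samples were not used.

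Of 50686 rows, 50462 matched Gencode M21 by identifier, an annotation of the same assembly. Counts were scaled with TMM (edgeR 4.0.16, R 4.3.3) to CPM, and log2(CPM + 1) was used for spreads. Genes with at least 10 counts in total (13974) were tested by chi-square with Benjamini-Hochberg adjustment at 0.05. No library was a duplicate, since any pair differed at no fewer than 6102 genes. Counts were also simulated with counting error as the only spread between lines. On these the test recovered 142 of 200 genes changed by 1.5-fold in line 3, with 7 false calls among 13974 genes. Spread between real lines was not simulated, so the false calls do not speak for it. A gene at 0 counts in a library is limited to 3 counts, and such limits cover counting error only.

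Stretches of 50 bases of a gene's transcripts were matched exactly, on both strands, against all annotated transcripts of other genes. Copies outside the annotation were not searched. The whole transcript was the one with the longest coding sequence, and the coding sequence alone, of the annotated principal transcript, was added after the data were seen. Neighbours were other genes starting within 5 Mb whose mean log2(CPM + 1) was 2 or higher. Pseudogene copies were aligned with Biopython 1.88, and the copies, positions and coding sequences are from Gencode M21. Python 3.11.15, numpy 2.4.6, pandas 2.3.3, scipy 1.17.1 and matplotlib 3.10.9 were used.

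Members, lists, named genes and tests were chosen with earlier results of these data known. Genes were named by rule: the 5 highest and 5 lowest per length, the 10 widest ranges between lines, paralog pairs, stalk and anaemia genes, the 5 highest and 5 lowest whole-transcript shares, and members under 1 CPM. Rps4l is not protein coding in the annotation and has no pair here. Rps3, Rpl8 and Rpl4 as steady genes, Rpl41, Rpl39, Rps10, Rpl24, Rps3a1, Rpl19, Rpl14, Gm10260 and Xist as examples, the other chromosome 5 members and the genes named from the lists were picked with their values in view. Settings tried in place of the main ones were library size alone, size factors of DESeq2 1.42.0, other filters, a pseudocount of 0.1 CPM, other lengths, 40-base stretches, a window of 2.5 Mb and leaving out each line. Some genes are counted in the totals but not reported here by name or drawn.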

Additional observations from a re-analysis of the deposited data

How the results depend on the processing

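With 3 lines, 1 of which decides the wide ranges, the members with a range of 1.5-fold or more numbered 0 to 9 when a line was left out, against 9, and 2 with a limit of 2-fold. Leaving out a line also gave 37 to 46 members that differed, in place of 52, a median SD of 0.0661 to 0.115 in place of 0.102, 78 to 79 members at 1 CPM in every line, a share of counts of 1.84% to 1.91% and an SD of levels per length of 2.44 to 2.49. That SD was 2.41 with the length of 1 transcript and 2.21 with unshared stretches. Members that share at least 50% of stretches numbered 41 over the whole transcript, 6 over exons of all transcripts without junctions and 68 over coding sequence, which are different sequences by construction. With DESeq2 size factors 52 members differed and 10 reached 1.5-fold. The members' median deviation in line 2, near 0, turned from -0.01 to 0.02 without line 1. The search of the whole genome for shared stretches was not run, since no genome sequence was given, so the shares miss copies outside the annotation. They also include genes that overlap a member's own locus, so they are not lower limits for every member. In Rpl13a, 97.5% of coding stretches were shared, and 38.75% were found in a pseudogene. No paired analysis was possible because there is 1 group. Depth limited the members with under 10 counts, which were not tested.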
